A study of Homo sapiens with 48 samples.

Results

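Addition of 2.5 mg/mL YFSJ to 75 µM gefitinib was examined in H1975 cells, an established line of non-small cell lung cancer with a mutated EGFR. The comparison holds 6 of the 48 RNA-seq libraries of the series: the 3 labelled with both agents (here the combination) and the 3 labelled with 75 µM gefitinib alone, all taken at 24 h and all chosen by those labels. Both groups therefore carry gefitinib, an inhibitor of the EGFR kinase, at the same dose, and they differ by YFSJ, a preparation that the labels give only by these letters. Cells grew in RPMI-1640 with fetal bovine serum, and the series text calls the 3 libraries of a group biological replicates. The labels state a single line and no vehicle for either agent, and the catalogue number beside the line, HTB-22, belongs to another ATCC line. For comparison, the same YFSJ dose was followed beside 50 µM gefitinib (3 libraries with and 3 without YFSJ) and without gefitinib (3 libraries with YFSJ and 3 untreated at 24 h), and YFSJ at 5 mg/mL beside 75 µM gefitinib gave 3 more libraries. Values are CPM, read counts per 1000000 counts of the library's effective size, and a gene was called where edgeR's quasi-likelihood test on 15789 genes gave a Benjamini-Hochberg adjusted p under 0.05.

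Interferon-stimulated genes encode antiviral effectors such as the MX GTPases, the OAS enzymes and the IFIT proteins. Type I interferon switches them on through a complex that contains IRF9 and binds a short element in their promoters. The aryl hydrocarbon receptor is a ligand-activated factor that switches on the cytochrome P450 genes CYP1A1 and CYP1B1 in epithelial cells. EGFR signals through the kinase ERK, which drives immediate early genes such as FOS and also the DUSP phosphatases that switch ERK off again.

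The promoters of 4 interferon-stimulated genes that fell and of CYP1A1, the gene with the largest rise among those called both with and without combination replicate 2, are shown because these sets lead the results below. Each is the 200 bases before the annotated gene start from RefSeq, in GRCh38.p14 coordinates, while the counts were made on hg19. Capitals mark matches on either strand to GAAANNGAAA, the core of the interferon-stimulated response element, in the first 4, and to GCGTG, the core of the element bound by the aryl hydrocarbon receptor, in CYP1A1.
IFI44L, chr1:78620248-78620447, plus strand: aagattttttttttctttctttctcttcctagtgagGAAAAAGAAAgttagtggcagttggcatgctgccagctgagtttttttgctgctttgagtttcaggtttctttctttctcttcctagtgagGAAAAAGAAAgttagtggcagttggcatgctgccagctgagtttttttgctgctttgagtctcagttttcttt
IFI6, chr1:27672193-27672392, minus strand: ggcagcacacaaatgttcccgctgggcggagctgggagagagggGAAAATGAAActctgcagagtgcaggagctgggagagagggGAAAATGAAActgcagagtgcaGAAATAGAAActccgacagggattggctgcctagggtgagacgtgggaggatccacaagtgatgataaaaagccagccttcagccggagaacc
IFIT1, chr10:89392423-89392622, plus strand: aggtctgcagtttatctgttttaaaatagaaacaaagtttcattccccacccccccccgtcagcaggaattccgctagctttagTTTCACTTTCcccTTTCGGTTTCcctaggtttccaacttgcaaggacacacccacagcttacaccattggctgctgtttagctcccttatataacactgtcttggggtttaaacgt
ISG15, chr1:1013297-1013496, plus strand: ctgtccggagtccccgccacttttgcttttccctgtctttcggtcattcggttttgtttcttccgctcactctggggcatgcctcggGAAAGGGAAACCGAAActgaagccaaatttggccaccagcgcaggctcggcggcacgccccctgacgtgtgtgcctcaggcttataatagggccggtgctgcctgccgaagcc
CYP1A1, chr15:74725529-74725728, minus strand: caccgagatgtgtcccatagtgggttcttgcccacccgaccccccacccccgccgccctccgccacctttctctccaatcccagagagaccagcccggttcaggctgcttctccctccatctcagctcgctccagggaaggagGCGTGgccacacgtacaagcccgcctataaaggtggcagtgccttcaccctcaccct
IFI44L held 2 matches, IFI6 held 3, IFIT1 held 2, both on the opposite strand, and ISG15 held 2 that overlap. Across all 35116 promoter windows of this length in the table, 2.4% held the interferon element core. Of the 35 interferon-stimulated genes tested, 27 had an entry, and 19 of those held the core. Of the 9 that were called both with and without combination replicate 2, 7 had an entry (OAS2 and OASL did not), and 6 held it. By window this was 7 of 10. IRF9 was the one with an entry and no match. The shorter GCGTG core occurred in 28.2% of all windows, in 37% of those of genes tested, and once in that of CYP1A1. A match describes these letters only.

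One library of the combination stood apart and is named before the results it touches. Combination replicate 2 had 2.18% of its counts on the mitochondrial ribosomal RNA RNR2, against 0.674% to 0.957% in the other 5 libraries. Its genes lay farther from the other libraries of its group than in almost any of the 48: the SD of the log2 differences was 0.4, against at most 0.253 outside this group and the untreated libraries taken at 0 h. The chi-square per gene between it and replicates 1 and 3 was 46.9 and 48.4, while replicates 1 and 3 differed from each other by 4.46 and the gefitinib libraries by 3.99 to 8.14. Total counts do not set it apart, since they ran from 16806799 to 19804446 over the 6 libraries, so that a count of 0 allows up to 0.151 to 0.178 CPM; this limit covers counting error only.

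The same library differed by base composition. In the most GC-rich of 5 equal bins of genes its median log2 difference from the other 2 libraries of the group was -0.28, and in the most GC-poor bin it was 0.10. Replicates 1 and 3 had 0.14 and 0.15 in the GC-rich bin, each against a mean that includes replicate 2, so these values are not separate evidence. Gefitinib replicate 2 leaned the same way as combination replicate 2, with -0.15 in the GC-rich bin, and gefitinib replicate 3 leaned the other way, with 0.14. Each of these was set against a mean that includes the other. The lung transcription factor NKX2-1 was at 57.1 and 52.4 CPM in combination replicates 1 and 3 and at 25.6 CPM in replicate 2, against 60.2, 62.5 and 72.7 CPM in the gefitinib libraries. Results of this comparison are therefore set beside their values without combination replicate 2.

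**Figure D1:**
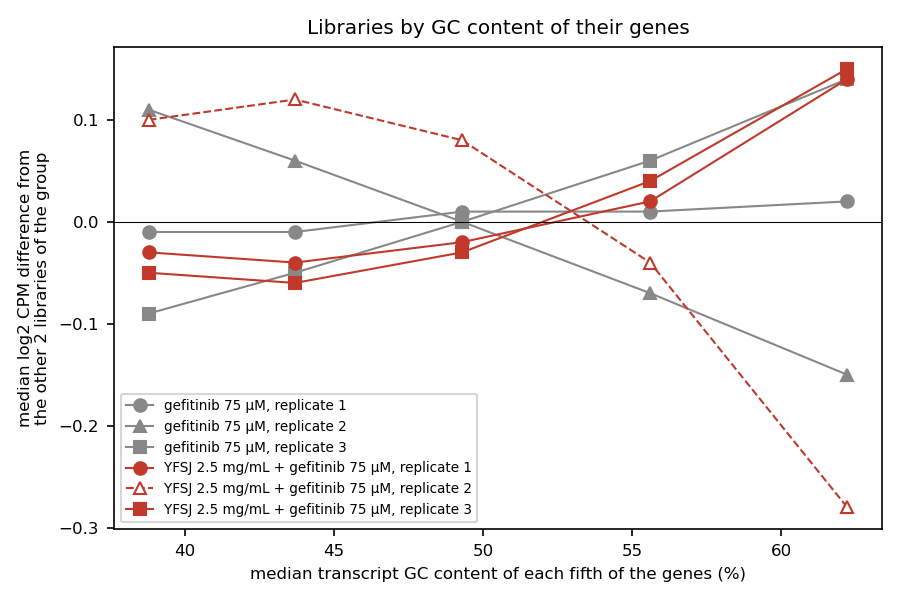
Median log2 CPM difference of each library from the other 2 libraries of its group (vertical axis) in 5 equal bins of genes ordered by transcript GC content (horizontal axis, percent). Combination replicate 2 (open triangles, dashed) falls to -0.28 in the GC-rich bin. Combination replicates 1 and 3, each set against a mean that includes replicate 2, are at 0.14 and 0.15.

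With all libraries, 289 genes differed between the combination and gefitinib alone (1.83% of genes tested), 157 higher and 132 lower. Without combination replicate 2, 32 genes were called (0.203%), 16 higher and 16 lower. The 2 sets shared 29 genes (0.184%), of which 14 were higher and 15 lower. The 6 libraries of the 2 groups did not overlap in any of these 29, as was also the case for 23.6% of all genes tested. A further 260 genes were called only with replicate 2 in the fit. All 260 kept their sign without it, and 60 had a log2 change at least 1.5 times smaller.

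The 260 genes also differed by base composition. The median transcript GC content was 45.2% for the 143 higher and 58.2% for the 117 lower, against 49.3% for all genes tested. It was 52.5% for both the higher and the lower of the 29 genes. Genes called only without replicate 2 were PIMREG (log2 change -0.56, adjusted p = 0.0376), RASD1 (0.76, adjusted p = 0.0446) and SLC2A9 (1.83, adjusted p = 0.0471), named because they are the only 3. The 29 genes are the base of what follows; where a gene was called only with replicate 2, this is stated.

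The 29 depend in part on gefitinib replicate 3, the highest gefitinib library for 8 of the 9 interferon-stimulated genes among them. Without it 29 genes were called in all, 16 of them among these 29. The 13 no longer called were OAS2, MX1, IFI6, ISG15, IFITM1, CCL5, FOS, SECTM1, SLC7A11, PLA2G4C, MYEOV, BMP2 and C3. Without gefitinib replicate 1 or 2 the count was 73 and 80, with 26 and 25 of the 29, and without combination replicate 1 or 3 it was 653 and 1079, with 26 and 28 of the 29. BMP2 and C3 lost their calls under most of these. In a fit of the 6 libraries by themselves no gene passed (smallest adjusted p = 0.0696), while the same fit without combination replicate 2 called 719 genes, 28 of the 29 among them. CYP1A1, OASL, DUSP5, IFI44L and CDC20 were called in 21 of the 22 other fits made, the exception for each being the fit of the 6 libraries by themselves.

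**Figure D2:**
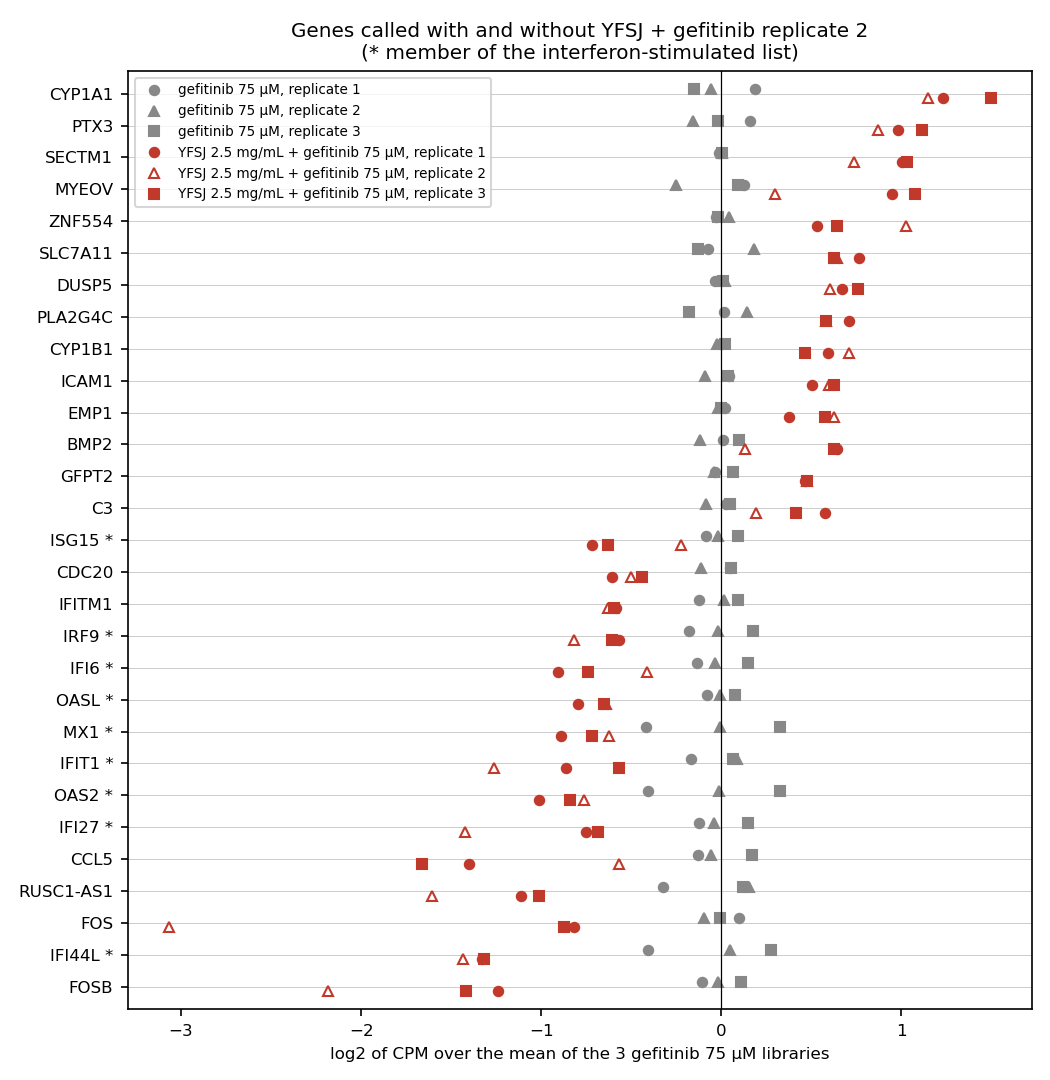
Each library's CPM over the mean of the 3 gefitinib 75 µM libraries, on a log2 scale, for the 29 genes called with and without combination replicate 2 (open triangles); asterisks mark the interferon-stimulated list. No gene's red and grey points overlap; FOS in combination replicate 2 lies far below combination replicates 1 and 3.

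Interferon-stimulated genes made up a part of the falls. Of 35 listed genes, all tested, 16 fell and none rose with all libraries (background for falls 0.836%), and 9 fell without combination replicate 2 (background 0.101%). The median log2 change of the list was -0.39 with all libraries and -0.38 without replicate 2, beside 0.00 for all genes in both fits. Of the 35, 34 were below 0. The list was drawn up with earlier results of these data known, so its direction is a description.

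IFI44L, a relative of the antiviral gene IFI44 whose promoter is printed above, had the most negative change of the list. Its level was 9.49, 13 and 15.2 CPM with gefitinib alone and 5, 4.65 and 5.04 CPM with the combination. Every combination library lay below every gefitinib library, and the spread lay almost wholly in the gefitinib group. The log2 change was -1.36 ± 0.18 (SE, n = 3 per group, adjusted p = 3.64e-05) and -1.32 without replicate 2 (adjusted p = 0.00134). Here and below the SE comes from the fit over all 48 libraries, which share 1 estimate of the spread. It is not the spread of these 6 libraries by themselves.

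MX1, a GTPase that blocks viral nucleocapsids, was at 28.5, 38 and 47.9 CPM with gefitinib and at 20.6, 24.8 and 23.2 CPM with the combination. Its log2 change was -0.74 ± 0.15 (adjusted p = 0.00686), and -0.80 without replicate 2. OAS2, which makes the 2'-5' oligoadenylates that activate RNase L, was at 15.1, 19.9 and 25.1 CPM against 9.95, 11.8 and 11.2 CPM, a log2 change of -0.87 ± 0.16 (adjusted p = 0.00159), and -0.92 without replicate 2. For both genes the gefitinib libraries spanned a wider range than the combination libraries, gefitinib replicate 3 was the highest, and without it neither was called.

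IRF9, the DNA-binding subunit of the complex that interferon activates, was at 57.6, 64.4 and 73.8 CPM with gefitinib and at 44.1, 37.1 and 42.8 CPM with the combination. It fell, with a log2 change of -0.66 ± 0.10 (adjusted p = 0.000307), and -0.59 without replicate 2 (adjusted p = 0.00379). The groups were separate by a wide margin, and here combination replicate 2 was the lowest library.

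OASL, an OAS-like protein with ubiquitin-like domains, was at 21.4, 22.5 and 23.8 CPM against 13, 14.5 and 14.4 CPM. This is a log2 change of -0.69 ± 0.11 (adjusted p = 0.000619), and -0.72 without replicate 2, with narrow spread in both groups. IFIT1, which binds foreign RNA ends, was at 37.3, 44.6 and 44 CPM against 23.1, 17.5 and 28.3 CPM, a log2 change of -0.87 ± 0.15 (adjusted p = 0.00112), and -0.71 without replicate 2. IFI27, a mitochondrial interferon-induced protein, was at 196, 208 and 237 CPM against 127, 79.6 and 133 CPM, a log2 change of -0.92 ± 0.16 that became -0.72 without replicate 2.

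In IFI6 and ISG15, by contrast, combination replicate 2 was the library closest to gefitinib alone. IFI6, whose promoter held 3 element cores, was at 125, 134 and 152 CPM against 73.1, 103 and 82 CPM. Its log2 change was -0.67 ± 0.13, and -0.82 without replicate 2 (adjusted p = 0.00351). ISG15, the ubiquitin-like modifier, was at 143, 150 and 162 CPM against 92.2, 130 and 98.1 CPM, with a log2 change of -0.51 ± 0.12 (adjusted p = 0.0163), and -0.68 without replicate 2. ISG15 is named to complete the 9, after its values were seen.

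The other 7 called list members were called only with replicate 2 in the fit. They were IRF7 (log2 change -0.74), RSAD2 (-0.70), IFI44 (-0.64), MX2 (-0.47), OAS1 (-0.46), USP18 (-0.39) and BST2 (-0.37). Without replicate 2 their values ran from -0.30 for BST2 to -0.71 for RSAD2. IFIT5, at 0.22 (adjusted p = 0.21), was the single member above 0.

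Outside that list, IFITM1, a membrane protein that limits viral entry, fell as well. It was at 58.7, 64.7 and 68.3 CPM with gefitinib and at 42.6, 41.3 and 42.3 CPM with the combination, a log2 change of -0.60 ± 0.12 (adjusted p = 0.00744), and -0.59 without replicate 2 (adjusted p = 0.047). CCL5, a T-cell attracting chemokine, was low throughout, at 3.93, 4.13 and 4.84 CPM against 1.63, 2.9 and 1.36 CPM. Its log2 change was -1.15 ± 0.25 with all libraries and -1.53 without replicate 2, which was its highest combination library. Without gefitinib replicate 3 neither was called. The libraries hold bulk RNA, in which fewer cells that express a gene and less RNA per cell cannot be told apart.

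Beside 50 µM gefitinib the same YFSJ dose called none of the 35 interferon-stimulated genes (background 0.0887%), and their median change was 0.00. IFI44L was at 5.87, 6.6 and 5.91 CPM with 50 µM gefitinib and at 5.32, 4.09 and 5.95 CPM with YFSJ added, a log2 change of -0.26 (adjusted p = 0.89). MX1 was at 18.4, 19.1 and 17.7 CPM against 19.5, 18.5 and 18.7 CPM. Between the gefitinib groups themselves, 75 µM minus 50 µM, MX1 differed by a log2 of 1.05 ± 0.15, OAS2 by 1.16 ± 0.16 and IFI44L by 1.04 ± 0.18, in a difference that uses the same 75 µM libraries as the falls above. The other 6 of the 9 did not pass in it: IFI27 differed by 0.55, IFI6 by 0.54, ISG15 by 0.47, IRF9 by 0.41, IFIT1 by 0.18 and OASL by 0.15. Against untreated cells, 75 µM gefitinib alone was higher for MX1 (log2 1.94), IFI27 (1.65), OAS2 (1.58), IRF9 (1.44), IFI44L (1.37) and IFI6 (0.92). For ISG15 the value was 0.08, while IFIT1 (-0.67) and OASL (-1.32) were lower than in untreated cells. These values use the same 75 µM libraries too.

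The test of the difference between the 2 gefitinib doses passed for none of these genes. The YFSJ change of IFI44L at 75 µM minus that at 50 µM was -1.10 ± 0.26 on the log2 scale (adjusted p = 0.328), that of OAS2 was -1.08 ± 0.23 (adjusted p = 0.315) and that of MX1 was -0.78 ± 0.21 (adjusted p = 0.644). Over all genes, edgeR called 0 in this test with all libraries (0% of genes tested, 1087 at an unadjusted p under 0.05), DESeq2 also called 0, and limma with quality weights called 8. Without combination replicate 2 edgeR called 1, FOS.

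**Figure D3:**
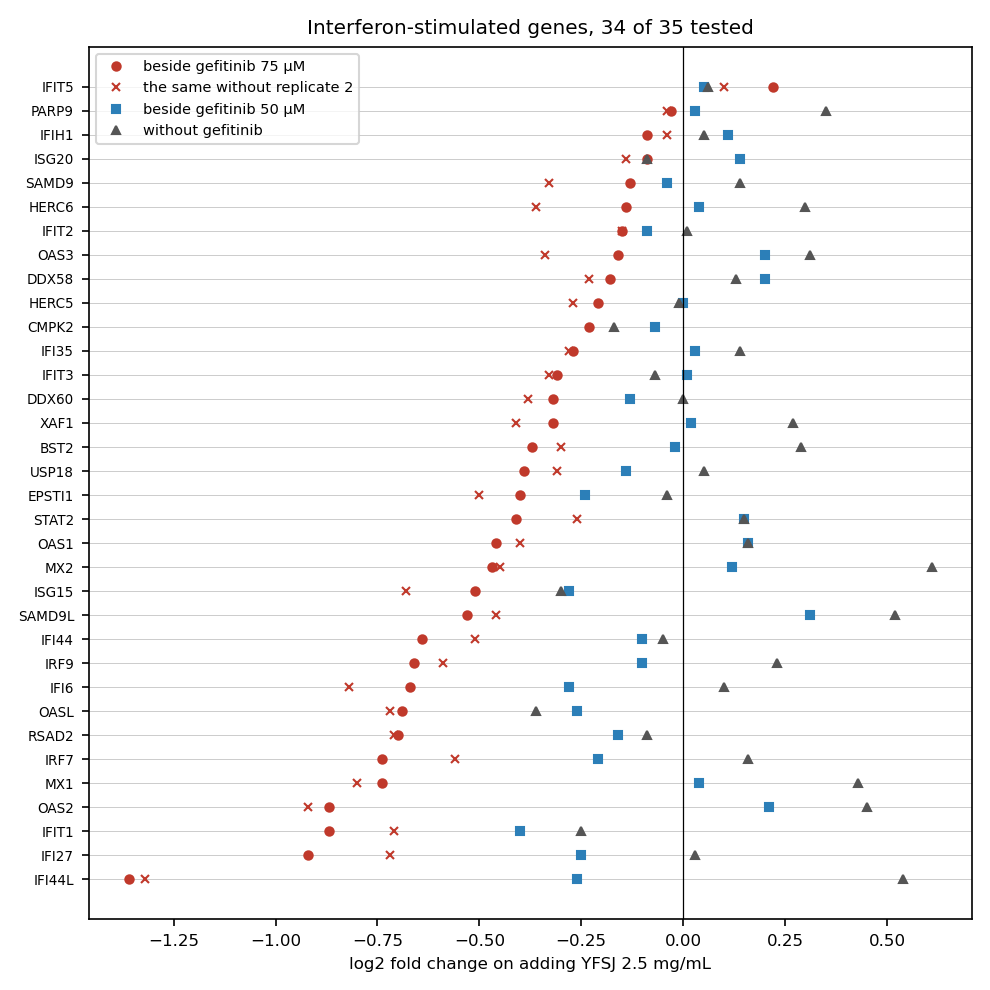
Log2 fold change on adding 2.5 mg/mL YFSJ (horizontal axis) for 34 of the 35 interferon-stimulated genes tested: beside gefitinib 75 µM with all libraries (circles) and without combination replicate 2 (crosses), beside gefitinib 50 µM (squares) and without gefitinib (triangles). The circles lie below 0 for every gene shown but IFIT5, while the median of the squares over the list is 0.00.

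Without gefitinib, YFSJ gave IFI44L a log2 change of 0.54 (adjusted p = 0.103), MX1 0.43 (adjusted p = 0.147) and OAS2 0.45 (adjusted p = 0.138). One list member, MX2, rose (0.61, adjusted p = 0.00426) and one, OASL, fell (-0.36, adjusted p = 0.0325), beside a background of 2.93% of genes called; the median of the list was 0.13. The difference between the YFSJ change beside 75 µM gefitinib and that without gefitinib was called for 68 genes (0.431%; 22 to 149 with 1 library left out), 8 of them on this list and all 8 lower beside gefitinib. These were IFI44L, OAS2, MX1, MX2, IFI27, IRF9, IFI6 and BST2, and 7 of the 8 were also called without combination replicate 2, the exception being IFI27 (adjusted p = 0.141).

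The libraries of YFSJ without gefitinib carried liver transcripts that the 6 libraries here did not. ALB, the serum albumin gene, had 0 to 5 counts in each of the 6 libraries, while the summed level of 20 liver genes was 334 to 379 CPM with YFSJ alone and 69.2 to 80.5 CPM in untreated cells. Of those 20 genes, 13 were called higher there (background 2.93% for either direction). Their summed level was 80.1 to 95.7 CPM in the combination and 86.7 to 94.1 CPM with gefitinib alone, with no member called. YFSJ alone at 5 mg/mL had 0 or 1 ALB counts per library. ALB was at 2581 to 3312 counts in some libraries without YFSJ, which held CKI, another preparation of the series. These were all 3 of CKI 2 mg/mL with 75 µM gefitinib. Some of CKI 1 mg/mL with 75 µM and of CKI 2 mg/mL with 50 µM were also among them. With a term for libraries above 1000 ALB counts in the model, 14 genes kept or gained a difference by gefitinib, 3 of the 8 interferon-stimulated genes among them (IFI44L, MX2 and IRF9). The other 5 no longer passed but kept differences of like size, from -1.32 to -1.24 for OAS2, -1.16 to -1.20 for MX1, -0.95 to -0.93 for IFI27, -0.77 to -0.81 for IFI6 and -0.66 to -0.60 for BST2. The part of these transcripts in the differences was not tested further.

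Some targets of the aryl hydrocarbon receptor rose. Of 10 tested of 12 listed, 3 rose and none fell with all libraries (background for rises 0.994%), 2 without combination replicate 2 (background 0.101%), with medians of 0.27 and 0.22. CYP1A1, a monooxygenase that oxidises polycyclic aromatic compounds, was at 2.48, 2.09 and 1.96 CPM with gefitinib and at 5.12, 4.83 and 6.15 CPM with the combination. The log2 change was 1.31 ± 0.23 (adjusted p = 0.00138), and 1.38 without replicate 2 (adjusted p = 0.00351). All combination libraries lay above all gefitinib libraries at a low level.

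CYP1B1, a related monooxygenase, was at 795, 784 and 808 CPM with gefitinib and at 1199, 1302 and 1097 CPM with the combination. The change was 0.59 ± 0.10 on the log2 scale (adjusted p = 0.00144), and 0.53 without replicate 2 (adjusted p = 0.0268). TIPARP, a receptor-induced ADP-ribosyltransferase that dampens the receptor, was at 53.6, 48.3 and 49.8 CPM against 72.5, 92.4 and 78.8 CPM. Its log2 change was 0.68 ± 0.13 (adjusted p = 0.00411), and without replicate 2 it was 0.58 and did not pass (adjusted p = 0.0616).

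Both P450 genes also rose without gefitinib, from 1.08, 0.58 and 1.25 CPM to 7.73, 6.67 and 7.02 CPM for CYP1A1 (log2 change 2.84) and by 1.17 for CYP1B1. Beside 50 µM gefitinib CYP1A1 rose by 1.26 (adjusted p = 0.00319), and CYP1B1 changed by 0.43 (adjusted p = 0.0922). For CYP1A1 the rise beside 75 µM gefitinib was smaller than that without gefitinib by 1.53 on the log2 scale, a difference of -1.53 ± 0.36 (adjusted p = 0.0313) that did not pass without combination replicate 2 (adjusted p = 0.088). With the ALB term the difference was -1.46 and did not pass (adjusted p = 0.146). Gefitinib alone already stood above untreated cells for CYP1A1, as the CPM values show.

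Genes downstream of NF-kappaB moved in both directions. Of 26 tested of 30 listed, 5 rose and 2 fell with all libraries (backgrounds 0.994% and 0.836%); without replicate 2, 2 rose and 1 fell (background 0.101% for each). The median was 0.27, and 0.43 without replicate 2, with 21 of 26 above 0 in each. ICAM1, an adhesion molecule for leukocytes, was at 90.1, 82.1 and 89.6 CPM with gefitinib and at 124, 132 and 135 CPM with the combination, a log2 change of 0.58 ± 0.10 (adjusted p = 0.00138) that was 0.57 without replicate 2.

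PTX3, a secreted pattern-recognition protein, was at 5.93, 4.76 and 5.25 CPM against 10.5, 9.72 and 11.5 CPM, a log2 change of 1.00 ± 0.18 (adjusted p = 0.00144), and 1.05 without replicate 2. ICAM1 and PTX3 also rose beside 50 µM gefitinib, by 0.48 and 0.93, and without gefitinib, by 1.12 and 0.77. IL24, a cytokine, and PTGS2, the inducible cyclooxygenase, rose by 1.22 and 0.96 with all libraries. Their changes without replicate 2 were of like size, 1.22 and 1.01, and did not pass (adjusted p = 0.0616 and 0.067). SOD2, a mitochondrial superoxide dismutase, rose by 0.58, while TNFAIP2 fell by 0.50, both only with replicate 2 in the fit (0.46 and -0.35 without it); the list's other fall was CCL5, above.

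Members of the ERK output list moved in both directions. Of 27 tested of 28 listed, 6 rose and 2 fell with all libraries, and 1 rose and 2 fell without replicate 2, beside backgrounds of 0.994% for rises and 0.836% for falls, and 0.101% for each without it; the median was 0.36, and 0.33 without it. DUSP5, a nuclear phosphatase of ERK, was at 29.7, 30.8 and 30.6 CPM with gefitinib and at 48.3, 46.2 and 51.4 CPM with the combination. Its log2 change was 0.68 ± 0.12 (adjusted p = 0.00138), and 0.72 without replicate 2 (adjusted p = 0.00351). The untreated level of DUSP5 was 52.5, 48.6 and 47.6 CPM, so the combination libraries overlapped the untreated ones and the gefitinib libraries lay below both.

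The falls were FOS and FOSB, immediate early subunits of the AP-1 transcription factor. FOS was at 98.6, 86.3 and 91.7 CPM with gefitinib and at 52.3, 11 and 50.4 CPM with the combination. Combination replicate 2 was by far the lowest, and it set much of the log2 change, which was -1.28 ± 0.26 (adjusted p = 0.0124) with it and -0.84 ± 0.16 without it (adjusted p = 0.00618). FOSB was at 6.89, 7.32 and 8.01 CPM against 3.14, 1.63 and 2.77 CPM, with a log2 change of -1.55 ± 0.27 (adjusted p = 0.00154), and -1.33 without replicate 2.

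Both AP-1 genes also fell beside 50 µM gefitinib, where FOS went from 109, 102 and 98.2 CPM to 23.3, 24.2 and 19.8 CPM (log2 change -2.20), and without gefitinib (-1.95). FOSB changed by -2.19 and -2.08 there. For FOS, the fall at 75 µM gefitinib was smaller than at 50 µM by a log2 of 1.35 without combination replicate 2 (adjusted p = 0.00244), and the difference was 0.92 with it (adjusted p = 0.722). This call thus rests on leaving that library out. EGR1, a zinc finger immediate early factor, was at 480, 444 and 527 CPM against 408, 117 and 324 CPM and did not pass (log2 change -0.77, adjusted p = 0.12, and -0.40 without replicate 2).

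DUSP6, the cytoplasmic ERK phosphatase, rose by 0.56 ± 0.14 (adjusted p = 0.0229), from 7.07, 8.02 and 6.51 CPM to 10.1, 10.3 and 11.4 CPM. CCND1, cyclin D1, rose by 0.62, TGFA, a ligand of EGFR, by 0.58, SPRED1, an inhibitor of the pathway, by 0.49, and PHLDA1 by 0.37. All of these were called only with replicate 2 in the fit; without it the values were 0.58 for DUSP6, 0.45 for CCND1 and TGFA, 0.36 for SPRED1 and 0.42 for PHLDA1. DUSP1, a phosphatase of stress kinases and ERK, changed by -0.36 (adjusted p = 0.115), from 82.8, 66.6 and 80.4 CPM to 67.9, 40.1 and 70.5 CPM, and by -0.15 without replicate 2 (adjusted p = 0.786). It fell by 0.92 beside 50 µM gefitinib and by 1.63 without gefitinib, and the difference from the latter was 1.27 ± 0.19 (adjusted p = 0.00015). DUSP5 also differed from its change without gefitinib (-0.09), by 0.77 ± 0.16 (adjusted p = 0.0154). With the ALB term this difference was 0.67 and did not pass (adjusted p = 0.193).

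**Figure D4:**
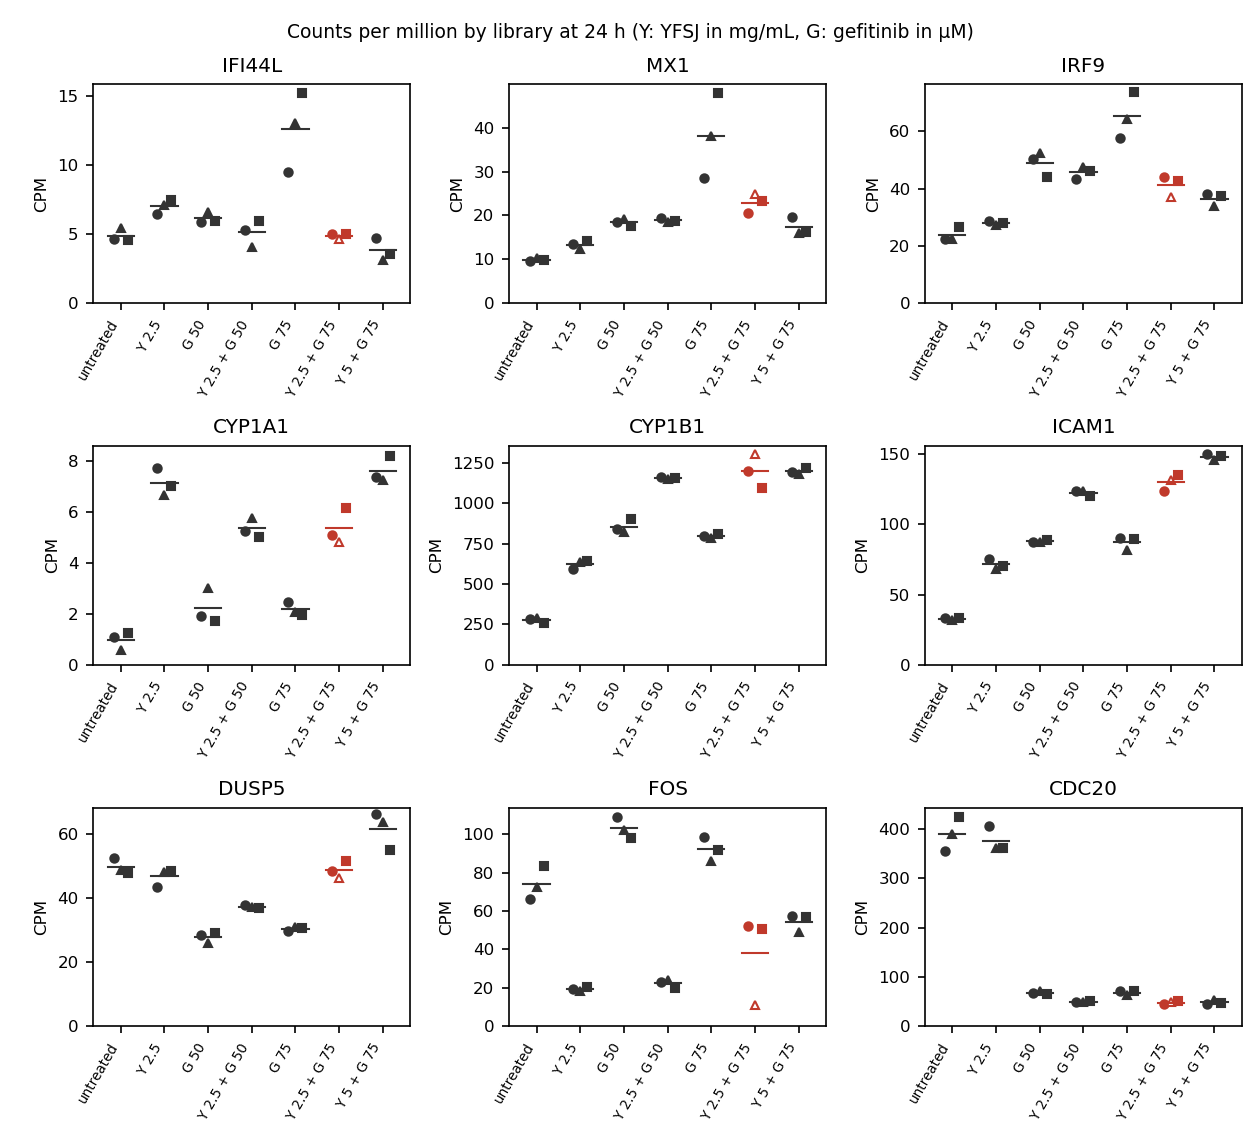
CPM (vertical axes, from 0) of 9 genes in every library of the 7 groups at 24 h (Y: YFSJ in mg/mL, G: gefitinib in µM); lines are group means, and the open triangle is combination replicate 2. IFI44L, MX1 and IRF9 are highest with gefitinib 75 µM alone, CYP1A1 is higher in each YFSJ group than in its control, and CDC20 is at 354 to 424 CPM in untreated cells.

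The receptors themselves did not pass. EGFR, the target of gefitinib, was at 75.8, 82.7 and 86.5 CPM with gefitinib and at 116, 149 and 88.8 CPM with the combination, a log2 change of 0.53 ± 0.17 (adjusted p = 0.0788) that was 0.32 without replicate 2 (adjusted p = 0.67). MET, a receptor linked to gefitinib resistance, was at 173, 199 and 173 CPM against 219, 278 and 202 CPM (log2 change 0.36, adjusted p = 0.125, and 0.21 without replicate 2). In both, replicate 2 was the highest combination library. ERBB2 and ERBB3, partners of EGFR, changed by -0.21 (adjusted p = 0.254) and 0.17 (adjusted p = 0.377), and by -0.14 and 0.13 without replicate 2. AXL, another resistance receptor, was at 61.2, 59.5 and 68.1 CPM against 57.4, 114 and 57.7 CPM, so its direction turned from 0.27 to -0.13 without replicate 2 and neither value passed. Of 19 receptor tyrosine kinases tested of 23 listed, 1 rose with all libraries (background for rises 0.994%) and none without replicate 2 (background 0.101%). It was TYRO3, by 0.45 (0.29 without replicate 2).

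Of 30 listed genes of mitosis, all tested, 4 fell and none rose with all libraries (background for falls 0.836%), and 1 fell without replicate 2 (background 0.101%). The median was -0.14, and -0.18 without it, with 26 of 30 below 0 in both. CDC20, which switches on the ubiquitin ligase that starts anaphase, was at 70.9, 63.3 and 71 CPM with gefitinib and at 45, 48.4 and 50.4 CPM with the combination. It fell, with a log2 change of -0.51 ± 0.08 (adjusted p = 0.0011), and -0.52 without replicate 2 (adjusted p = 0.00361).

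CDC20 also fell beside 50 µM gefitinib, by 0.46 (adjusted p = 0.00576), and changed by -0.05 without gefitinib (adjusted p = 0.817), where its level was 354 to 424 CPM untreated. The test of the difference from the latter gave -0.46 (adjusted p = 0.0576). PLK1, a mitotic kinase, fell by 0.45 with all libraries, and without replicate 2 its change was -0.48 (adjusted p = 0.0505). CENPA, the centromeric histone, and KIF20A, a kinesin of cytokinesis, fell by 0.56 and 0.48, only with replicate 2 (-0.45 and -0.50 without it). None of 35 genes of DNA replication passed, and their median was -0.01.

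Of the lists on redox and stress, SLC7A11 was the member called both with and without replicate 2. It encodes the cystine importer that feeds glutathione synthesis and belongs to both the NRF2 list (3 of 30 rose with all libraries, 1 without replicate 2) and the ATF4 list (1 of 30 in both), beside backgrounds of 0.994% and 0.101%. Its level was 37.8, 45.1 and 36.4 CPM with gefitinib and 67.7, 62.2 and 61.3 CPM with the combination, a log2 change of 0.68 ± 0.14 (adjusted p = 0.00962), and 0.70 without replicate 2 (adjusted p = 0.0434). It was not called without gefitinib replicate 1 or without gefitinib replicate 3. TXNRD1, thioredoxin reductase, rose by 0.39 and TRIM16L by 0.32, only with replicate 2 (0.37 and 0.26 without it); TRIM16L has a close copy, TRIM16, so its counts are uncertain. ABCG2, a drug efflux pump, rose by 0.57 with all libraries from 21.3, 17.7 and 16 CPM to 24.7, 34.2 and 22.7 CPM, and its change was 0.37 without replicate 2 (adjusted p = 0.318).

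The remaining genes that changed belong to none of these lists. SECTM1, a secreted and membrane-bound immune ligand, was at 10, 10.1 and 10.1 CPM with gefitinib and at 20.2, 16.8 and 20.6 CPM with the combination, a log2 change of 0.93 ± 0.19 (adjusted p = 0.00863), and 1.02 without replicate 2. ZNF554, a zinc finger protein, was at 31, 32.5 and 31.2 CPM against 45.6, 64.4 and 49.3 CPM, a log2 change of 0.75 ± 0.12 that became 0.59 without replicate 2. In both, each combination library was above each gefitinib library.

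MYEOV, a gene of the CCND1 amplicon region, was at 8.83, 6.8 and 8.65 CPM against 15.6, 9.96 and 17.1 CPM, and its log2 change was 0.82, or 1.02 without replicate 2. PLA2G4C, a cytosolic phospholipase, rose by 0.63 (0.65 without replicate 2), EMP1, a tetraspan membrane protein, by 0.53 (0.48), and BMP2, a morphogen, by 0.49 (0.63). GFPT2, which makes glucosamine-6-phosphate for the hexosamine pathway, rose by 0.47, with and without replicate 2, and complement C3 by 0.40 (0.50 without it); both are named to complete the 29, after their values were seen. RUSC1-AS1 fell from 5.14, 7.15 and 6.98 CPM to 2.97, 2.11 and 3.18 CPM, a log2 change of -1.21 ± 0.23 (adjusted p = 0.00244), and -1.06 without replicate 2 (adjusted p = 0.047). It lies antisense to RUSC1 and the libraries are unstranded, so reads of the pair cannot be told apart; RUSC1 changed by -0.32 (adjusted p = 0.131).

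**Figure D5:**
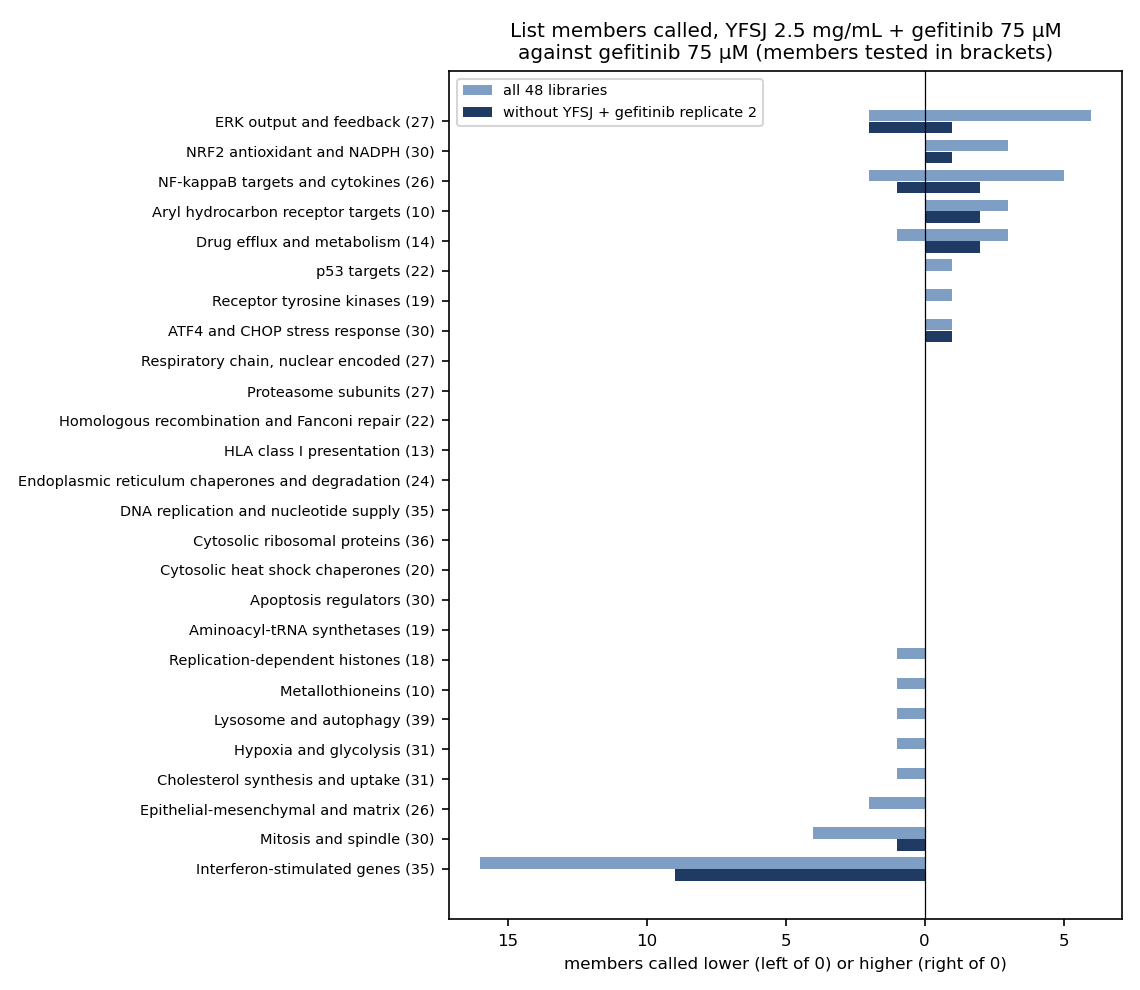
Number of list members called lower (left of 0) or higher (right of 0) in the combination against gefitinib 75 µM, for 26 gene lists with the members tested in brackets; pale bars use all 48 libraries and dark bars leave out combination replicate 2. Interferon-stimulated genes have 16 and 9 falls, and 18 lists have no dark bar.

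Most other lists had few calls. No member passed in either fit for homologous recombination, tRNA synthetases, endoplasmic reticulum chaperones, heat shock chaperones, apoptosis regulators, HLA class I presentation, the respiratory chain, ribosomal proteins or the proteasome. Calls made only with replicate 2 included the p53 target AEN (log2 change 0.50, and 0.50 without it), the mevalonate enzyme MVD (-0.63, and -0.51 without it), the lysosomal regulator TFEB (-0.80 and -0.70) and the glycolytic regulator PFKFB4 (-0.37 and -0.31). In the same order of values, they also included the metallothionein MT1F (-0.66 and -0.62), the histone HIST1H3B (-1.51 and -1.28), the vitamin D hydroxylase CYP24A1 (-0.61 and -0.52), and SNAI1 (-0.67 and -0.44) of the matrix list. Histone, metallothionein and CGB genes have near-identical copies, so their counts are uncertain. Cholesterol synthesis genes had a median of -0.18 and -0.20 without replicate 2, with 24 and 26 of 31 below 0.

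Among genes called only with combination replicate 2 whose higher group averaged 5 CPM or more, replicate 2 was extreme in some and not in others. The 5 largest rises among them were IL24, F2RL3, PTGS2, ARHGEF34P and CEMIP, and the 5 largest falls LOC100130417, CGB8, REC8, SSPO and SPACA6. CGB8, a chorionic gonadotropin beta gene, was at 14.8, 18.6 and 18.3 CPM with gefitinib and at 8.26, 3.5 and 10.1 CPM with the combination, where replicate 2 was the lowest. ARHGEF34P, a pseudogene, was at 6.23, 6.1 and 7.09 CPM against 9.42, 18.3 and 8.97 CPM, where replicate 2 was the highest. IL24 was at 9.42, 9.66 and 9.83 CPM in the combination, so in that gene replicate 2 lay between the other 2, as it did for PTGS2. For F2RL3, a thrombin receptor, it was the lowest combination library.

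The same YFSJ dose beside 50 µM gefitinib, in libraries shared with none of those above, called 14 genes (0.0887%), and 5 to 9 when any 1 of its 6 libraries was left out. Of the 29 genes, 27 (93.1%) had the same direction there and 9 were called, which is 9 of those 14. The 2 parts of the 29 differed in this count: of 20 genes outside the interferon-stimulated list, 20 had the same direction and 9 were called, and of the 9 on it, 7 had the same direction and 0 were called. The 9 called were CYP1A1, PTX3, SECTM1, MYEOV, ICAM1, C3, FOS, FOSB and CDC20. Of the 260 genes called only with combination replicate 2, 230 (88.5%) had the same direction at 50 µM and 1 was called, CEMIP, a hyaluronan-binding protein (0.99, adjusted p = 0.0107). The share with the same direction over all genes tested is not given, here or for YFSJ without gefitinib. The counts of direction therefore have no background and are a description.

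Without gefitinib YFSJ called 463 genes (2.93%), and 162 to 354 with 1 library left out. Of the 29, 22 had the same direction and 11 were called. Of the 20 outside the interferon-stimulated list, 19 had the same direction and 10 were called; of the 9 on it, 3 had the same direction and 1 was called, OASL. With the ALB term in the model the comparison without gefitinib called 48 genes in all. CYP1A1, CYP1B1, ICAM1, SECTM1, BMP2, FOS and FOSB still passed in it. OASL, PTX3 and SLC7A11 did not (adjusted p = 0.738, 0.0605 and 0.141). With the term the log2 change went from -0.36 to -0.16 for OASL. It went from 0.77 to 0.91 for PTX3 and from 0.78 to 0.74 for SLC7A11, so these 2 kept changes of like size. Every library of YFSJ alone was above 1000 ALB counts and no untreated library was. The term was thus estimated only from groups with CKI that held libraries of both kinds.

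Raising YFSJ from 2.5 to 5 mg/mL beside 75 µM gefitinib gave no gene past the threshold in edgeR's test (0% of genes tested, 1667 at an unadjusted p under 0.05, 557 without combination replicate 2), while DESeq2 called 4 and limma with quality weights 25. IFI44L was at 4.73, 3.14 and 3.58 CPM with 5 mg/mL, a log2 difference of -0.35 from the lower dose (adjusted p = 0.521). CYP1A1 was at 7.38, 7.25 and 8.22 CPM, a difference of 0.50 (adjusted p = 0.366). ICAM1 was at 150, 146 and 149 CPM, above all 3 libraries of the lower dose, with a difference of 0.19 (adjusted p = 0.506). The 2 doses were not shown to act alike by these tests.

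The cells were checked against markers. KRT7, a keratin on the lung list, was at 1762 to 2446 CPM over the 6 libraries, and NKX2-1 was present in all. The surfactant gene SFTPC had 0 to 3 counts and SFTPB 0 to 2 counts in each. The oestrogen receptor ESR1, which marks luminal breast cells, had 1 to 3 counts in each library and PGR had 0. Other genes of the breast list were present. By median, 9 of its 20 genes reached 1 CPM in both groups, against 7 of 20 on the lung list. PTPRC, the pan-leukocyte marker, had 0 to 3 counts. Of the marker lists, breast epithelium had 1 of 13 members tested called (background 1.83%), CA12 (0.29, only with replicate 2, and 0.27 without it). Those of lung, fibroblasts, blood, liver and intestine had none. The summed level of the 20 lung markers was 2408 to 2634 CPM with gefitinib and 1960 to 2244 CPM with the combination. KRT7 made up most of this sum, with 2232 to 2446 CPM and 1762 to 2052 CPM. The summed level of the 20 breast markers, which include the keratins KRT8, KRT18 and KRT19, was higher. It was 3981 to 4306 CPM with gefitinib and 3359 to 4858 CPM with the combination. The part of these sums in the results was not tested, nor was the identity of the line.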

How the data were processed

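The authors deposited raw counts per gene symbol (27978 symbols, 48 libraries, 16 groups of 3); trimming with Trim Galore 0.4.2, alignment with STAR 2.5.3a, edgeR and the build hg19 are named in the submitters' processing notes, and the counting tool and strand setting are not given in the sources used here. Libraries were unstranded and paired-end, per the labels. From these counts, genes were filtered (filterByExpr, minimum count 10, minimum total 15), scaled by TMM and fitted over all 48 libraries in R 4.3.3 with edgeR 4.0.16 (robust quasi-likelihood, two-sided, 32 residual degrees of freedom), and tested on simulated data. Totals ran from 16428398 to 26264162. Alternatives used DESeq2 1.42.0 and limma 3.58.1, other scalings, fewer libraries and a replicate block. Named genes were the 12 largest rises and 12 largest falls called with and without combination replicate 2 with a mean of at least 5 CPM, the 5 largest rises and falls called only with it, 3 per list, and EGFR, ERBB2, ERBB3, MET and AXL; other called list members were added, except some that are not reported here. The comparison, the 26 gene lists and the 6 marker lists were chosen with earlier results of these data known, as was the decision to leave out that library in turn.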

Additional observations from a re-analysis of the deposited data

Results flagged for a closer look

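The YFSJ change beside 75 µM gefitinib differed from the YFSJ change without gefitinib, by a test of the difference itself, for 68 genes. Among the genes named in the report, the log2 difference was negative for IFI44L (-1.89), CYP1A1 (-1.53), OAS2 (-1.32), MX1 (-1.16), IFI27 (-0.95), IRF9 (-0.89), IFI6 (-0.77), PLK1 (-0.72), INSIG1 (-0.60) and PFKFB4 (-0.52). It was positive for EDN1 (1.37), DUSP1 (1.27), SRFBP1 (0.89) and DUSP5 (0.77). Of the 68 genes, 25 were also called without combination replicate 2, 12 with a term for libraries above 1000 ALB counts, and 9 in all 3 fits. Of the genes named here, 4 did not pass without that library: CYP1A1 (adjusted p = 0.088), PFKFB4 (0.0895), IFI27 (0.141) and INSIG1 (0.153). With the ALB term CYP1A1, OAS2, MX1, IFI27, IFI6, PLK1, INSIG1, PFKFB4 and DUSP5 did not pass. Their adjusted p ran from 0.0719 (MX1) to 0.207 (INSIG1), and each kept its sign. IFI44L, IRF9, EDN1, DUSP1 and SRFBP1 passed with that term. EDN1, the precursor of endothelin, fell by 1.08 on the log2 scale without gefitinib and changed by 0.29 beside it. INSIG1, a brake on cholesterol synthesis, changed by 0.24 and -0.36. All 3 libraries of 2.5 mg/mL YFSJ without gefitinib carried liver transcripts, as the report gives, and their part in these differences was not tested beyond the ALB term.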

How the results depend on the processing

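The count of genes that differed between the combination and gefitinib alone (289) was 185 with library-size scaling (49.7% of them higher, against 54.3%), 567 with DESeq2, 616 with limma quality weights (combination replicate 2 had a weight of 0.154), 35 at an adjusted p under 0.01 and 0 with the 6 libraries fitted by themselves. Leaving out 1 library gave 29 to 1079: 73, 80 and 29 without gefitinib replicates 1, 2 and 3, and 653, 32 and 1079 without combination replicates 1, 2 and 3. Without combination replicate 2 it was 33 with relative log expression, 28 with library-size scaling, 66 with DESeq2, 719 with the remaining 5 libraries alone, and 20, 11 and 12 without gefitinib replicate 1, 2 or 3 as well. The replicate block gave 272 calls, and 24 without combination replicate 2. Same-numbered gefitinib and combination libraries had correlations of -0.04, 0.09 and 0.07, against -0.10 to 0.07 for differently numbered ones. These values correlate differences from the group mean, which in the combination includes the outlying replicate 2. They cannot settle whether the numbers pair the libraries. Genes called with and without that library (29) numbered 59 with DESeq2 and 0 with the 6 libraries alone, and all 29 kept their direction in each of the 22 other fits. The call count beside 50 µM gefitinib (14) was 39 with DESeq2, 862 with limma quality weights, 28 with its 6 libraries alone, 8 at 0.01 and 5 to 9 with 1 library left out. Without gefitinib (463) it was 2176 with limma quality weights, 48 with the ALB term, 165 at 0.01 and 162 to 354 with 1 library left out; library-size scaling gave 83.3% higher against 68.7%. The difference by gefitinib (68) was 158 with DESeq2, 416 with limma quality weights, 26 with its 12 libraries alone, 14 with the ALB term, 21 at 0.01 and 22 to 149 with 1 library left out; library-size scaling gave 15.7% higher against 36.8%. Without combination replicate 2 it was 30, 30 with relative log expression, 32 with library-size scaling, 26 with the block, and 23, 27 and 20 without a gefitinib library as well. The difference between gefitinib doses (0) was 8 with limma quality weights and 0 to 1 with 1 library left out; without combination replicate 2 it was 1 with relative log expression, the block or the groups alone, 2 with library-size scaling, 4 with DESeq2, and 2, 1 and 1 without gefitinib replicate 1, 2 or 3 as well. The YFSJ dose difference (0) was 4 with DESeq2, 25 with limma quality weights, 0 to 6 with 1 library left out, and 1 with its groups alone without combination replicate 2. AXL, at 0.27, was 0.44 without combination replicate 1 and turned to -0.07 with limma quality weights, and without combination replicate 2 to -0.13 (relative log expression, DESeq2 and the block -0.13), -0.10 with library-size scaling, -0.12 with the groups alone, and -0.15, -0.17 and -0.07 without a gefitinib library as well. Fits that combine a setting with leaving out that library, and the ALB term, were chosen after seeing the data. The cause of these changes was not tested. Depth limits genes near the 0.151 to 0.178 CPM that a count of 0 allows.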
